A study of Mus musculus with 16 samples.

Results

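The 236 genomic regions described here held a peak for each of the forkhead transcription factors Foxn3 and Foxn4 and no peak for Rfx3 in mouse retina at embryonic day 16. They were chosen by the measured peak positions alone: all peaks of the 3 deposited lists that overlapped by at least 1 bp were merged, which gave 6155 regions, and 236 of them (3.83%) held Foxn3 and Foxn4 peaks without an Rfx3 peak. They took up 236 of 2794 Foxn3 peaks (8.45%) and 237 of 2956 Foxn4 peaks (8.02%), while none of the 3981 Rfx3 peaks lay in them. By comparison, 875 regions held all 3 factors, 1654 held Foxn4 alone and 292 held Foxn3 alone.

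The study used CUT&RUN, in which an antibody on a chromatin protein in permeabilised cells tethers micrococcal nuclease, and the fragments released next to it are sequenced. Retinas from embryos of CD-1, an outbred mouse stock, were pooled and dissociated, and about 300000 cells went into each assay, so a library is a mixture of all retinal cell types and of several animals. Of 16 libraries, 4 were made with an antibody to Foxn3, 2 with one to Foxn4 and 2 with one to Rfx3, beside 8 with non-specific immunoglobulin G (IgG): rabbit IgG for Foxn3 (4 libraries) and Rfx3 (2), and mouse IgG for Foxn4 (2). The Foxn3 libraries and their rabbit IgG are recorded as 2 experiments. Nuclease digestion at 0 °C lasted 1 h, except for Foxn4 and mouse IgG, which were digested for about 12 h, so the Foxn4 antibody and the digestion time cannot be told apart. The labels name no genotype or drug. Each antibody had 1 peak list, which libraries entered it is not stated, and neither replicate nor IgG values were analysed here. No value below has a spread between replicates, read depth is unknown, and the tests compare regions of these lists, not repeated experiments.

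FOXN proteins carry a forkhead DNA-binding domain. Foxn4 is expressed in retinal progenitors and is required for horizontal cells and for many amacrine cells, while Foxn3 is widely expressed and is known as a transcriptional repressor linked to cell cycle checkpoints. RFX factors such as Rfx3 bind X-box sequences and switch on genes for building cilia, so regions without Rfx3 are those of the Foxn3 and Foxn4 overlap that lack the ciliogenic factor's peak.

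Where the regions met promoters, the letters most often seen were the CCAAT box, the site for the ubiquitous factor NF-Y. The following stretches show it. The first 4 come from the gene-end regions with the best combined peak ranks that held at least 60 bases before a start site outside every annotated gene, and the promoters of Atp5b and H2bc14 were added after their letters were seen. Each is the part of the region before the gene's transcription start site, read 5′ to 3′ on the strand of the gene, from RefSeq promoter windows of GRCm38.p6 (mm10). All lie outside annotated genes, and capitals mark CCAAT on either strand (CCAAT or ATTGG).
Rpl13a, chr7:45128746-45128995, minus strand: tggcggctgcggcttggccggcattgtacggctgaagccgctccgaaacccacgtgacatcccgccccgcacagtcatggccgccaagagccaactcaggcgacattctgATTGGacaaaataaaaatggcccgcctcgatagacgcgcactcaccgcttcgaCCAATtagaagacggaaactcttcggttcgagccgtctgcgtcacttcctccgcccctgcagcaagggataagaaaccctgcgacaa
Arhgap19, chr19:41802085-41802278, minus strand: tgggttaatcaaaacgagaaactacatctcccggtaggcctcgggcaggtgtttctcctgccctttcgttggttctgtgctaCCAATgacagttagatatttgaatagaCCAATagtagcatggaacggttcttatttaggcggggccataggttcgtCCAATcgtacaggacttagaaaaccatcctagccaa
Hnrnpc, chr14:52104040-52104240, minus strand: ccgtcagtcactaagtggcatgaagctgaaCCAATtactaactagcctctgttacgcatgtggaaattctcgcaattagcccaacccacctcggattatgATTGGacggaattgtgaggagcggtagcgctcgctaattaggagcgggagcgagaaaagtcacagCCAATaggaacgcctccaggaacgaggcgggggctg
Nrd1, chr4:109000436-109000654, plus strand: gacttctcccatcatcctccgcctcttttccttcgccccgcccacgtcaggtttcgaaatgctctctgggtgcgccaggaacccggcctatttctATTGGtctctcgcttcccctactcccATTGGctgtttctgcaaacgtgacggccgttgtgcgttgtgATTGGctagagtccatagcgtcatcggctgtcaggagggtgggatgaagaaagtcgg
H2bc14, chr13:21721819-21722043, plus strand: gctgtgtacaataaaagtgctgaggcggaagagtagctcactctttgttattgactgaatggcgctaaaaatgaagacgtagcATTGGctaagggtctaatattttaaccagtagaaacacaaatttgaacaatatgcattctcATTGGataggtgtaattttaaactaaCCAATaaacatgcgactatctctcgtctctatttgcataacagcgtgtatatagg
Atp5b, chr10:128083057-128083306, plus strand: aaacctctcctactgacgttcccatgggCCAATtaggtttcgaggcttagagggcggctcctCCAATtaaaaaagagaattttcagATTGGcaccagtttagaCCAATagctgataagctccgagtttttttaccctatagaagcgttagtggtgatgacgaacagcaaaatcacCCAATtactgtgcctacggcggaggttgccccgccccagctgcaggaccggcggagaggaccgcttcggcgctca

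The stretch of Rpl13a, which encodes a protein of the large ribosomal subunit, holds 2 boxes. Those of Arhgap19 (which acts in cell division), Hnrnpc (a nuclear RNA-binding protein), Nrd1 (the protease nardilysin) and H2bc14 (a replication-dependent histone H2B) hold 3 each. Atp5b, the beta subunit of mitochondrial ATP synthase, has 5. Near-identical histone genes can share reads, so the assignment of the H2bc14 peaks to this copy is uncertain.

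Most of the 236 regions lay away from genes' ends. A region was placed by its midpoint: within 1 kb of the first or last annotated base of a protein-coding gene (gene end), inside a gene but farther from its ends, or between genes. By this measure 55 regions (23.3%, 95% Wilson interval 18.4% to 29.1%) were at a gene end, 76 (32.2%) were inside a gene and 105 (44.5%, 38.3% to 50.9%) were between genes. The gene table has neither strand nor exons, so intron and exon were not separated. Of the 53 gene-end regions outside chromosome 18, for which promoter windows were not used here, 46 also had a transcription start site within 1 kb.

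Placement differed between the classes of regions. At gene ends stood 530 of 875 regions of all 3 factors (60.6%, 57.3% to 63.8%), against 23.3% of the 236 regions (odds ratio 0.198, 95% interval 0.142 to 0.275, adjusted exact p = 5.64e-24). Foxn3-only regions were also at gene ends more often, in 178 of 292 cases (61.0%, odds ratio of the 236 regions against them 0.195, 0.133 to 0.285, adjusted exact p = 9.52e-18). Foxn4-only regions were there less often, in 184 of 1654 cases (11.1%, odds ratio 2.43, 1.73 to 3.41, adjusted exact p = 1.83e-06). The placement of the Foxn3 and Foxn4 regions was therefore between those of Foxn3 alone and Foxn4 alone. These are two-sided Fisher's exact tests, adjusted by the Benjamini-Hochberg method over 9 comparisons, and the intervals cover counting error only.

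The share between genes showed the reverse order. It was 44.5% for the 236 regions, 17.4% for regions of all 3 factors (odds ratio 3.81, 2.79 to 5.20, adjusted exact p = 2.67e-16) and 13.7% for Foxn3-only regions (odds ratio 5.05, 3.31 to 7.69, adjusted exact p = 6.41e-15). Against Foxn4-only regions, at 50.7%, the difference did not pass the threshold (odds ratio 0.780, 0.593 to 1.03, adjusted exact p = 0.123). With 5 kb in place of 1 kb as the reach of a gene end, it did (odds ratio 0.661, adjusted exact p = 0.00625).

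**Figure D1:**
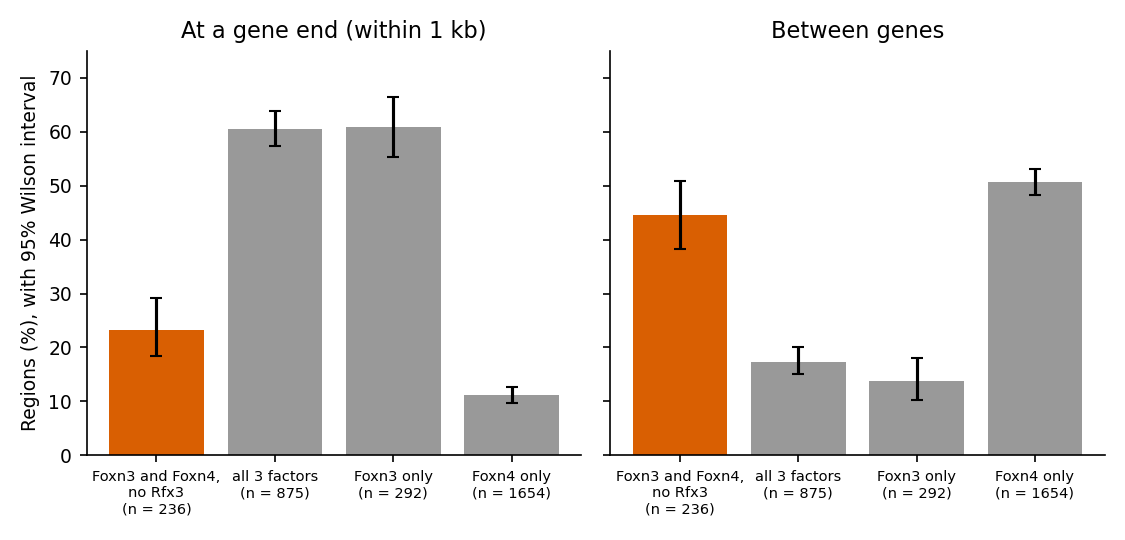
Share of regions (%) at a gene end (left) and between genes (right), for the Foxn3 and Foxn4 regions without Rfx3 (orange) and 3 other classes of regions (grey). Bars show the share and lines its 95% Wilson interval. The orange bars stand at 23.3% and 44.5%, between the Foxn3-only and Foxn4-only classes in both panels.

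The placement depended on the score of the peaks admitted. The score is the authors' own value per peak, its scaling is not stated, and it is used here only within a list, as the percentage of that list's peaks that scored lower. When each list was limited to peaks at or above its median score, 71 regions held Foxn3 and Foxn4 and no Rfx3 peak, and 76.1% of them were at a gene end (odds ratio 1.63 against all 3 factors, adjusted exact p = 0.410). Of these 71, 61 overlapped an Rfx3 peak below the median and so were not among the 236. With the limit on Foxn3 and Foxn4 peaks and every Rfx3 peak kept, 10 regions were left, 4 of them at a gene end.

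The Foxn3 peaks in the regions were low in their list. They scored higher than a median of 10.8% of all Foxn3 peaks (quartiles 4.12% and 22.2%), and 192 of 236 fell in the lowest 25% of the list. The Foxn4 peaks in the same regions were not: they scored higher than a median of 67.6% of Foxn4 peaks (quartiles 29.3% and 86.0%), and 101 lay in the top 25%. In 210 of the 236 regions the Foxn4 peak ranked higher in its list than the Foxn3 peak did in its own. For reference, peaks in regions of all 3 factors had medians of 41.6% for Foxn3 and 57.4% for Foxn4, Foxn3-only peaks 31.0% and Foxn4-only peaks 29.3%. Since the presence of peaks chose the regions, these ranks are a description without a test.

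Ranks also differed by place. At gene ends the median was 22.2% for Foxn3 and 29.3% for Foxn4, while away from them it was 10.8% for Foxn3 and 75.5% for Foxn4. The Foxn4 peak ranked above the Foxn3 peak in 172 of 181 regions away from gene ends and in 38 of 55 at gene ends. Within the regions the ranks of the pair were hardly related (Spearman rank correlation -0.12 over 236 regions, 0.06 over the 55 and 0.01 over the 181), a description across regions that share the same libraries.

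**Figure D2:**
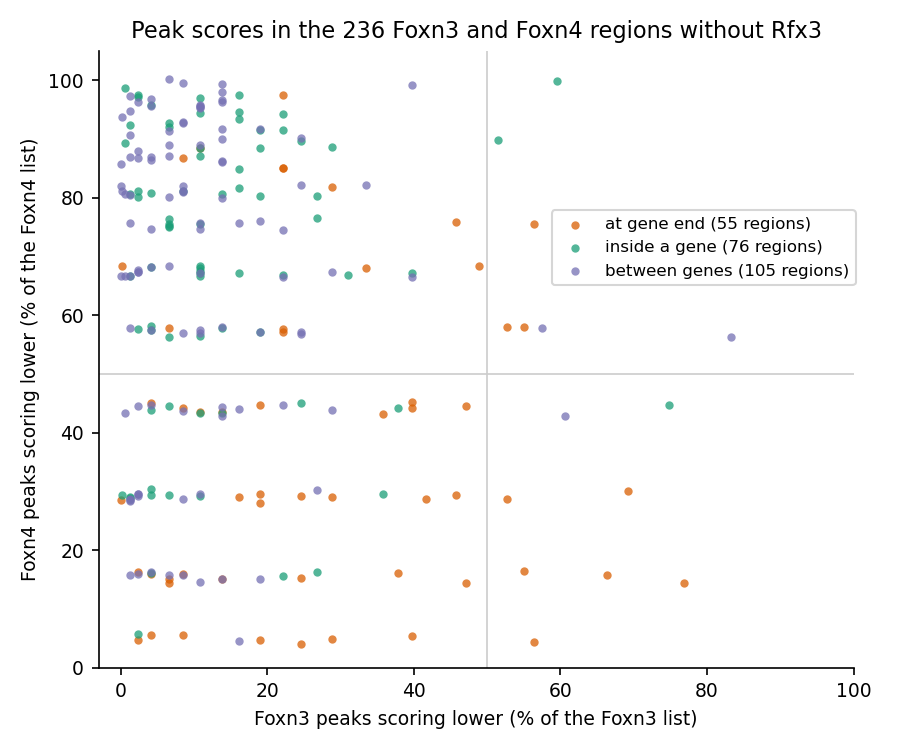
Each point is 1 of the 236 regions, with the percentage of Foxn3 peaks (x axis) and of Foxn4 peaks (y axis) that scored lower than the region's own. Points are spread slightly along the y axis so that equal scores do not hide each other, colours give the place, and grey lines mark 50%. Most points lie left of 50% on the Foxn3 axis (221 of 236), and the upper left is filled mainly by regions away from gene ends.

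Since most of these Foxn3 peaks ranked low, the placement was also compared among regions whose Foxn3 peaks lay in the lowest 25% of the list, a restriction chosen after the ranks were seen. Among these, 31 of 192 Foxn3 and Foxn4 regions without Rfx3 (16.1%) were at a gene end, against 51.1% of 268 regions of all 3 factors (odds ratio 0.184, adjusted exact p = 1.89e-14) and 59.0% of 122 Foxn3-only regions (odds ratio 0.134, adjusted exact p = 1.89e-14). Regions with a Foxn3 peak above the lowest 25% were not compared separately, so whether the difference holds there was not tested. Foxn4-only regions have no Foxn3 peak, so the restriction could not be applied to them. Set against all of them (11.1%), the 192 regions gave an odds ratio of 1.54 (1.02 to 2.33, adjusted exact p = 0.0786), which is not a like-for-like comparison.

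The rule required Foxn3 and Foxn4 peaks to overlap, and within the regions they lay largely on top of each other. The extent of this overlap was not compared with other classes. The regions had a median width of 474.5 bp, with a median overlap of 335.5 bp between the pair and a median of 44.25 bp between their midpoints (quartiles 20.5 and 75.25 bp). In 135 regions (57.2%) 1 peak lay wholly inside the other: the Foxn4 peak inside the Foxn3 peak in 85 and the reverse in 50. All but 1 region consisted of exactly 2 peaks. The widest, inside Fbxw7, which encodes a substrate receptor of a ubiquitin ligase, spanned 1257 bp at chr3:84937146-84938402, and the narrowest, 162228 bp from Tmem64, spanned 226 bp at chr4:15448869-15449094.

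At the limits of the rule, the shortest overlap of the pair in a region was 127 bp, and the closest Foxn3-only and Foxn4-only regions were 291 bp apart. The nearest Rfx3 peak lay 197 bp from the region at Nr1d2 (the clock repressor REV-ERB beta), 322 bp from the one near Trib1 (a pseudokinase) and 698 bp from the one whose nearest gene is Tbc1d2b. The shortest overlap of an Rfx3 peak with a Foxn3 or Foxn4 peak in a region of all 3 factors was 209 bp. Foxn3 and Foxn4 were not measured separately there, so a shorter overlap with either of them is not excluded. With a shortest overlap of 127 bp, the Foxn3 and Foxn4 regions without Rfx3 did not rest on a few bases. The median gap to an Rfx3 peak was 229576 bp. It was under 1 kb for 5 regions and under 100 kb for 71. The gaps were widest near Cdh10 (5919621 bp), Pcdh7 (5037180 bp) and G6pd2 (4418022 bp). Cdh10 and Pcdh7 encode adhesion proteins of the cadherin superfamily.

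**Figure D3:**
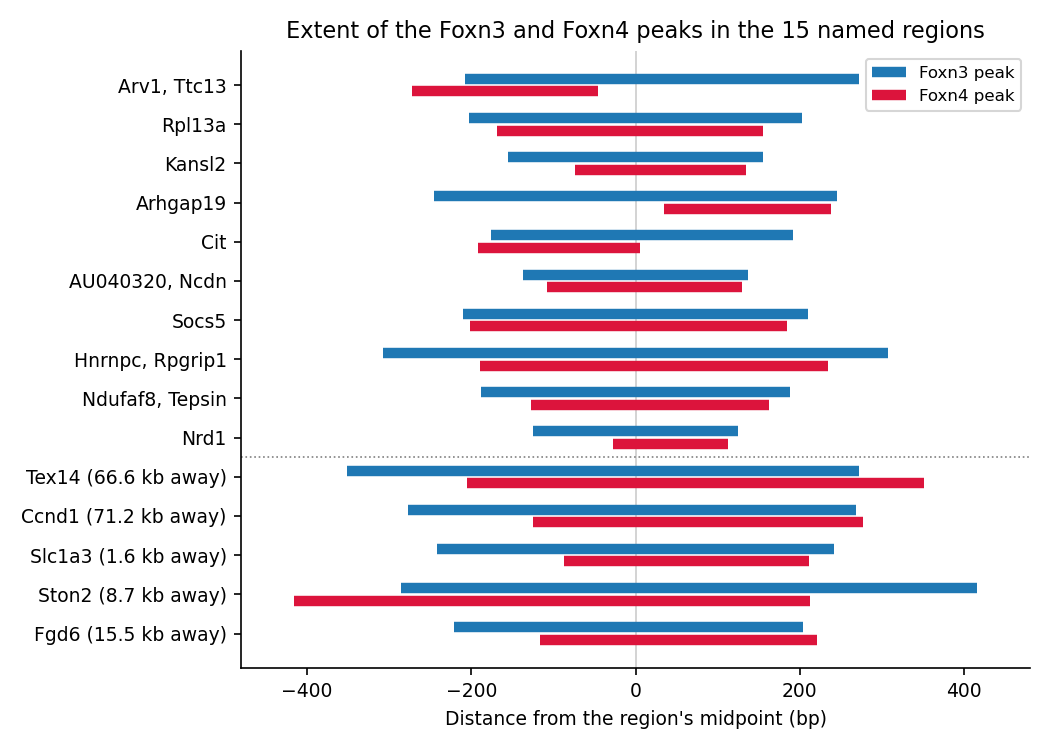
Extent of the Foxn3 peak (blue) and the Foxn4 peak (red) around the midpoint of the 15 regions with the best combined ranks, 10 at gene ends above the dotted line and 5 away from them below it. The x axis is distance in bp and the labels give the distance to the nearest gene end for the lower 5. The rule requires the Foxn4 bar to overlap the Foxn3 bar. Midpoints are farthest apart at Arv1, Ttc13 (191 bp), Ston2 (167.5 bp) and Arhgap19 (136 bp).

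An end of 65 of the 21887 protein-coding genes (0.297%) lay within 1 kb of the midpoint of a gene-end region, though not every such gene was overlapped. These genes are ranked here by the lower of the pair's ranks. The region over the adjoining ends of Arv1 (sterol transport) and Ttc13, chr8:124721948-124722492, came first, with a Foxn3 score of 35.5 (above 56.4% of the list) and a Foxn4 score of 9.78 (above 75.5%). Rpl13a followed (chr7:45128718-45129123), with a Foxn3 score of 34.6 (55.0%) and a Foxn4 score of 8.0 (57.4%). At Kansl2, a subunit of the NSL histone acetyltransferase complex, the Foxn3 score was 32.7 (52.8%) and the Foxn4 score 8.0 (57.4%). That region lay 479 bp inside the gene, 22 bp from a start site, at chr15:98534136-98534446. These 3 were the only gene-end regions with both peaks above the median score of their lists. Ranks count only lower-scoring peaks, and many scores are tied. A score at the list median therefore has a rank of 49.0% for Foxn3, as at Arhgap19, and of 44.1% for Foxn4.

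Arhgap19 and Cit, genes of cell division, came next in that order. At Arhgap19 (chr19:41801787-41802278) the Foxn3 peak was above 49.0% of its list and the Foxn4 peak above 67.6%. At Cit, the citron kinase of cytokinesis (chr5:115844999-115845382), the values were 45.7% and 75.5%. The region of Hnrnpc and Rpgrip1 (chr14:52103956-52104571) had 39.7% and 44.1%. Rpgrip1 encodes a protein of the photoreceptor connecting cilium. The remaining regions of the first 10 were those of AU040320 and Ncdn, Socs5 (a suppressor of cytokine signalling), Ndufaf8 and Tepsin, and Nrd1. Their Foxn3 ranks were 33.5% to 47.2%, and their Foxn4 ranks were 44.1%, except at Nrd1 with 67.6%.

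Gene lists for retina, cilia, their regulators and DNA damage had at most 1 gene each at the regions, and no list was tested. Among 105 primary cilium genes 1 was at a region, Rpgrip1, whose region also covers the start of Hnrnpc. In the promoter windows used, only Hnrnpc had a start site within 1 kb of that region's midpoint. Among 103 motile cilium genes there was none. None of 26 ciliation, forkhead and RFX regulators and none of 91 genes of the DNA damage checkpoint and repair list had a region at an end. The retinal transcription factors (64 genes) and the Notch pathway (48) each had the same 1, Hes1, the Notch-driven repressor that keeps progenitors undifferentiated. Its region, chr16:30065065-30065515, had low ranks for both factors, 8.45% for Foxn3 and 5.18% for Foxn4. Beside the 0.297% of all protein-coding genes, these are counts of at most 1.

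Lists of housekeeping genes had 0 to 2 genes each, again beside 0.297% of all protein-coding genes and without a test. Ribosomal proteins had 2 of 84 (2.38%), Rpl13a and Rpl3, and the region at Rpl3 ranked at 45.7% for Foxn3 and 29.3% for Foxn4. The list of the mitochondrial ribosome and respiratory chain had 2 of 186 (1.08%): Atp5b (39.7% and 5.18%) and Ndufaf8, an assembly factor of complex I. Splicing and RNA processing had 2 of 205 (0.976%), Hnrnpc and Dhx35, an RNA helicase gene with a Foxn3 rank of 66.4% and a Foxn4 rank of 15.4%. Proteasome genes had 1 of 48, Psmb3, which shares its region with the Polycomb gene Pcgf2 (24.6% and 29.3%).

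Translation factors had 1 of 104, Eif4g2, and histones 1 of 102, H2bc14, and these regions had equal ranks, 22.2% for Foxn3 and 86.0% for Foxn4. The counts leave out H3f3b of the histone list and Hnrnph1 of the splicing list. The regions inside these genes lay 1402 and 2323 bp from a gene end, but 133 and 98 bp from a start site. The cell cycle list had 1 of 110, the kinetochore gene Ndc80, in a region shared with Spdya (19.0% and 29.3%). Genes of RNA polymerases and general transcription (105) and zinc finger proteins (461) had none. Other genes of mitosis and cytokinesis at the regions, picked after their names were seen, were Oip5 and Nusap1 in 1 shared region (6.55% and 57.4%) and Fam83d (6.55% and 15.4%). Oip5 acts at centromeres, and Nusap1 and Fam83d act on the spindle.

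Regions with a pair of genes did not differ detectably in frequency between classes. Ends of 2 or more genes lay at 10 of 55 gene-end regions (18.2%), 25.5% of those of all 3 factors (odds ratio 0.650, 0.319 to 1.33, adjusted exact p = 0.317), 26.4% of Foxn3-only (0.619, 0.289 to 1.33, adjusted exact p = 0.317) and 20.1% of Foxn4-only gene-end regions (0.883, 0.407 to 1.91, adjusted exact p = 0.848). These intervals are wide, and neither equality nor a difference can be read from them.

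The 181 regions away from gene ends were far out: their median distance to a gene end was 78832 bp, and 75 were over 100 kb away. In the classes of all 3 factors, Foxn3 alone and Foxn4 alone the corresponding medians were 31338, 13391.5 and 55055.5 bp. The 76 regions inside genes lay in long genes, with a median length of 289 kb against 105 kb (all 3 factors), 90.0 kb (Foxn3 only) and 215 kb (Foxn4 only). Gene length was not tested.

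**Figure D4:**
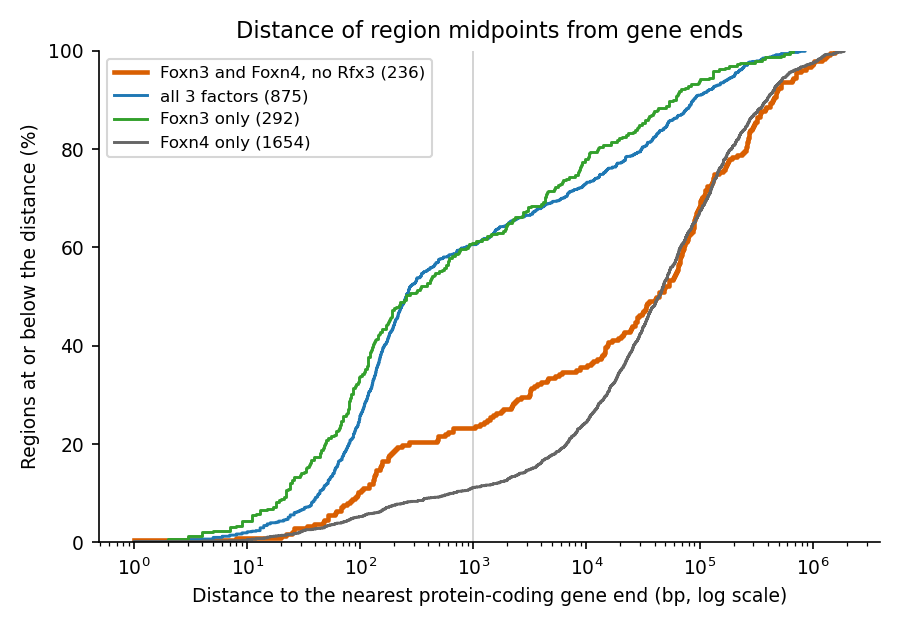
Share of regions (%) whose midpoint lies at or below a distance from the nearest protein-coding gene end (bp, log scale), for 4 classes. The orange curve of the Foxn3 and Foxn4 regions without Rfx3 reaches 23.3% at 1 kb (grey line) and 33.5% at 5 kb, above the Foxn4-only curve there (odds ratio at 5 kb 2.33) and below the curves of all 3 factors and of Foxn3 alone.

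Of the 181, the region with the best Foxn3 rank lay 1600 bp beyond an end of Slc1a3, the glutamate transporter GLAST of radial and Müller glia and progenitors. The nearest protein-coding start site was 78283 bp from that region. At chr15:8632282-8632766 the Foxn3 score was 85.0 (above 83.3% of the list) and the Foxn4 score 8.0 (57.4%). A further region of the 236 lay beside it, 4571 bp from the same end at chr15:8629321-8629785, with ranks of 60.7% and 44.1%. The nearest Rfx3 peak to the first was 1115916 bp away.

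Inside Tex14, a gene of germ cell intercellular bridges, chr11:87471231-87471933 ranked at 59.6% for Foxn3 and 98.7% for Foxn4, and overlapped the small RNA gene Rnu3b2. The region nearest to Ccnd1, which encodes the progenitor cyclin D1, lay 71188 bp from that gene at chr7:145010742-145011296 (57.6% and 57.4%). Ston2, an endocytic adaptor, held a region 8731 bp from its end (51.5% and 89.1%), and Fgd6, an exchange factor for Cdc42, one 15546 bp from its end (74.8% and 44.1%).

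The nearest gene was a retinal transcription factor of the list at 4 regions away from gene ends. Counted by gene, 3 of the 64 retinal factors were nearest to such a region. Beside them stood 4 of 461 zinc finger proteins and 2 of 91 DNA damage genes, Rad51b and Xrcc4. No other list had more than 1. The share over all genes was not computed, so these counts cannot be read as a result about any list. At the region 61361 bp from Sox4, the ranks were 6.55% for Foxn3 and 86.0% for Foxn4. The region nearest to the glial and progenitor factor Sox9 was 280198 bp from it (8.45% and 29.3%). Both regions nearest to the nuclear receptor gene Nr2f1, 444268 and 479666 bp away, had a Foxn4 rank of 81.1%, with Foxn3 ranks of 6.55% and 0.215%. The nearest gene is a label of position, and contact with it was not measured. From the cilium lists, only Hspb11, an intraflagellar transport gene (IFT25), was nearest, and it hosts the region itself, with 16.2% for Foxn3 and 96.6% for Foxn4.

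Promoter letters were read in windows from 250 bases before to 50 after a start site. The regions overlapped 48 windows of protein-coding genes, at 44 regions (41 at gene ends and 3 inside a gene). A CCAAT box stood in 42 of the 48 (87.5%), beside 38.2% of all 21263 windows, 71.1% of 588 windows at regions of all 3 factors, 62.1% at Foxn3-only and 55.3% at Foxn4-only regions. Counted by region, 39 of 44 had a box. At least 2 boxes were present in 33 windows (68.8%), against 12.8% of all windows and 50.3% at regions of all 3 factors. The 6 windows without a box were those of Ap2m1, Arv1, Glce, Ndc80, Ttc13 and Usp8, which include the first-ranked region.

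The boxes lay a median of 93.5 bases before the start site, and those of all windows 88 bases before it. The 48 windows were richer in G and C (median 60%, all windows 56.3%) and in CpG (observed to expected ratio 0.854 against 0.567). Of 9600 windows with GC of at least 50% and a CpG ratio of at least 0.6 (GC- and CpG-rich windows), 36.1% had a CCAAT box. That set was not matched to the 48 windows. Its median GC was 65%, and the H2bc14 window, with 38.7% GC, falls outside it. Whether base composition bears on the CCAAT share was not tested. The set of windows is small, genes that face each other share letters, and no test was made.

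Other letters were rarer, all searched on both strands. The forkhead cores GTAAACA and GTAAATA were in none of the 48 windows (3.01% and 2.59% of all windows), and GACGC, the core of the alternative FOXN site, was in 23 (47.9%). That was more than in all windows (33.4%) but less than in the GC- and CpG-rich windows (56.8%) and in those at regions of all 3 factors (56.1%), Foxn3 alone (56.2%) and Foxn4 alone (60.5%). The RFX half-site GTTGCC was in 8 (16.7%), where all windows had 12.6%, windows at regions of all 3 factors 17.2% and windows at Foxn3 and Rfx3 regions without Foxn4 36.0%. The X-box, a pair of facing half-sites GTTNCC and GGNAAC at most 3 bases apart, was in none of the 48, in 0.762% of all windows, in 1.02% of those at regions of all 3 factors and in 7.29% of those at Foxn3 and Rfx3 regions without Foxn4. A count of 0 among 48 says only that these letters are not in these windows.

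Matches of AAGATGGC, the YY1 core, were found in 10 windows (20.8%, all windows 3.05%, GC- and CpG-rich windows 4.88%), 6 of which belong to 3 facing pairs: Arv1 with Ttc13, AU040320 with Ncdn, and Ndufaf8 with Tepsin. The E-box CACGTG was in 10 windows as well (20.8%), Rpl13a and Dhx35 among them, beside 7.84% of all windows, 11.6% of the GC- and CpG-rich ones and 36.1% of those at Foxn3-only regions. The ETS core CCGGAAG was in 12 (25%), beside 11.6% of all windows and 20.1% of the GC- and CpG-rich ones. The GC box GGGCGG was in 35 (72.9%), above all windows (46.2%) but below the GC- and CpG-rich ones (76.8%), with 74.6% at Foxn3-only and 71.7% at Foxn4-only regions. Each match describes the letters of a window and does not show a bound site.

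**Figure D5:**
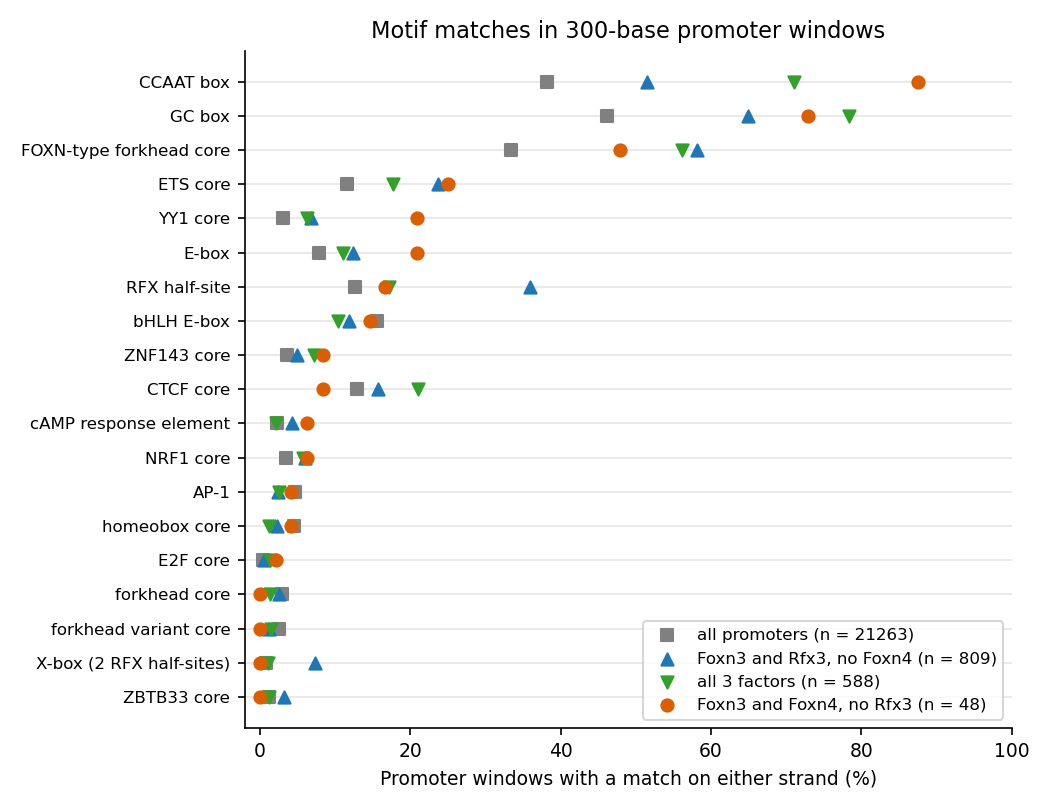
Share of 300-base promoter windows (%) with a match to each of 19 motifs on either strand, for all protein-coding promoters (grey), those at Foxn3 and Rfx3 regions without Foxn4 (blue), those at regions of all 3 factors (green) and the 48 at Foxn3 and Foxn4 regions without Rfx3 (orange). The orange point stands at 87.5% for the CCAAT box, and at 0 for the forkhead cores and the X-box.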

How the data were processed

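CUT&RUN libraries for Foxn3, Foxn4 and Rfx3 were made from pooled embryonic retina, per the labels' protocols. The submitters' processing notes name cutadapt, Bowtie2, UMI-tools, bedtools, SEACR and the mm10 build, without their roles. The deposited peak lists give position and 1 signal value per peak, the authors' score, with unstated scaling. Pooling of libraries and use of IgG are not given in the sources used here.

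Peaks overlapping by at least 1 bp were merged. Genes came from a RefSeq table of GRCm38.p6 (mm10). Regions were compared by two-sided Fisher's exact tests with Benjamini-Hochberg adjustment over 9 comparisons (Python 3.11.15, SciPy 1.17.1, pandas 2.3.3, numpy 2.4.6, matplotlib 3.10.9), tested on simulated data. Members, gene lists (15) and motifs (19) were chosen with earlier results of these data known. Named were the best 10 gene-end and 5 other regions by the lower of both ranks, genes of the lists other than zinc fingers, the 3 nearest to and 3 farthest from Rfx3, and the widest and narrowest; genes outside this rule were picked after their values were seen. Alternatives covered merging, score, gene-end distance, Rfx3 gap, autosomes and start sites. Sequences were read from RefSeq promoter windows only, and other sequences were not used here.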

Additional observations from a re-analysis of the deposited data

How the results depend on the processing

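Of 100 alternative values computed, 83 were counted as unchanged. For odds ratios this meant the same direction and side of the threshold, whatever their size. For shares, counts and medians it meant a similar size. With only peaks at or above their list's median score, the count of regions fell from 236 to 71 (10 with every Rfx3 peak kept), the gene-end share was 76.1% and the share between genes 9.86%. The odds ratios then reversed: 1.63 and 1.58 at gene ends against all 3 factors and Foxn3 alone (adjusted exact p = 0.410 for both), and 0.792 and 0.758 between genes (adjusted exact p = 0.758 for both). Against Foxn4 alone, the between-gene odds ratio was 0.149 (adjusted exact p = 3.10e-08). The gene-end odds ratio against Foxn4 alone kept its direction but rose from 2.43 to 10.9 (adjusted exact p = 3.65e-19). These 71 are largely different regions, since 61 overlap a weaker Rfx3 peak. With a 5 kb reach, 33.5% of regions were at a gene end, 37.7% between genes (odds ratio 0.661 against Foxn4 alone), 31.6% of gene-end regions had 2 or more genes (odds ratio 1.28 against Foxn4 alone, reversed, adjusted exact p = 0.445), and 105 genes in place of 65 were at the regions; the longer reach alone admits more genes. In regions with Foxn3 peaks in the lowest 25% of scores, an alternative chosen after seeing the data, the gene-end share was 16.1% and the odds ratio against all Foxn4-only regions, to which this limit cannot apply, 1.54. Merging over gaps of up to 100 bp, a 500 bp reach, start sites alone and an Rfx3-free margin of 1 kb changed no call. An overlap of at least 50% of the shorter peak and autosomes only each left 235 regions. No paired analysis was possible because each antibody has a single list, and for the same reason no replicate could be left out. Depth is unknown, so a missing Rfx3 peak is not evidence that Rfx3 was absent.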

Other observations

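Small RNA genes lay under a few of the regions. A gene annotated as snRNA was overlapped by 8 of 236 regions (3.39%, 95% Wilson interval 1.73% to 6.55%), beside 14 of 875 regions of all 3 factors (1.60%), 2 of 1654 Foxn4-only regions and 0 of 292 Foxn3-only regions. It was 1 of 1361 for Foxn3 and Rfx3 without Foxn4, 0 of 178 for Foxn4 and Rfx3 without Foxn3, and 0 of 1559 for Rfx3 alone. The annotation counts Rnu3b2 as snRNA, although U3 is a small nucleolar RNA. The Foxn4 peak with the highest rank in the 236 regions (99.3% of its list, Foxn3 rank 6.55%) lay at Rnu5g, a U5 snRNA gene, at chr9:65200610-65201839. Rnu3b2, a U3 gene, and Rnu11, a U11 gene, lay under the regions inside Tex14 and near Taf12, whose Foxn4 ranks were 98.7% and 75.5%. On chromosome 1, regions over Gm25360, Gm24497 and Gm25939 followed each other near Mreg and Pecr, with Foxn4 ranks of 91.5%, 91.5% and 67.6%. Near-identical copies of these genes can share reads, so the position of such peaks is uncertain, and whether this bears on the overlap was not tested. A tRNA gene, n-TMcat11, lay under the region at Ilf2, and Mir5133 under that at Glce.

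Some of the regions stood close together: 14 had another of the 236 within 10 kb, in pairs near Pecr, Fgd6, Slc1a3, Mb21d2, Fam98a, Dipk1c and Tle1. The closest pair was that near Slc1a3, 2496 bp apart. A region 1025 bp from Fezf2, a forebrain and bipolar cell transcription factor gene outside the lists, had a Foxn3 rank of 4.12% and a Foxn4 rank of 96.6%. The region inside Crb1, a cell polarity gene of the retina, lay 104 bp from a start site of that gene, with ranks of 4.12% and 44.1%. These were picked after their names were seen.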
